A study of Mus musculus with 12 samples.

Results

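Immediate early genes are switched on within minutes of a stimulus from factors already present in the cell, without new protein synthesis. Calcium and kinase signals reach their promoters through SRF with its ETS partners, which bind the CArG box and neighbouring sites, and through CREB, which binds the cAMP response element (CRE). In neurons they are read as marks of recent synaptic activity, and in dividing or stressed cells many of them answer growth factors, serum and damage.

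The genes described here are Arc, Npas4, Fos, Fosb, Junb, Egr1, Egr2, Nr4a1, Ier2 and Atf3, chosen by name, and all 10 of 10 are among the 24421 genes measured. RNA sequencing of polyA RNA was done on 12 mouse libraries in 4 groups of 3. The first group is non-tumour cortex of wild-type genotype. The control tumours are ependymomas of genotype ZFTA-RELA, named for the fusion of the genes ZFTA and RELA that drives a class of ependymoma. The other groups carry ZFTA-RELA too, with overexpression of human ETV5 (a transcription factor of the ETS family) or of human NPY (the precursor of neuropeptide Y). The sources used here do not give the transgene promoters, the way the tumours were made or the age of the mice. They also do not say whether replicates were separate animals, so a p-value covers only the spread among libraries. The groups are called ETV5 tumours and NPY-labelled tumours after their labels, since reads at mouse genes do not measure a human transgene.

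The libraries held 5962376 to 11291057 reads, with cortex the shallowest group at up to 7444467. Levels are read counts scaled to the library total (CPM), and 3 reads correspond to 0.266 to 0.503 CPM across the 12 libraries. The library codes of cortex, control tumours and ETV5 replicates 1 and 2 start with DS, and those of ETV5 replicate 3 and all NPY-labelled tumours start with EC. The labels do not explain the code. A difference of NPY-labelled tumours from cortex or from control tumours cannot be told apart from it. Their difference from ETV5 tumours is partly mixed with the code.

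The cell type markers match the cortex label and show how little neuronal RNA the tumours held. The summed level of 10 excitatory neuron markers (Slc17a7, Camk2a, Neurod6 and others, 10 of 10 measured) was 9579 to 11559 CPM in cortex, 547 to 1307 CPM in control tumours, 64.3 to 811 CPM in ETV5 tumours and 56.2 to 63.2 CPM in NPY-labelled tumours. Neurod6 had 0 reads in all NPY-labelled tumours, and no other marker of that list was at 0 throughout a group. No markers of ependymal or tumour cells were on the lists, so the tumour label was not checked. In bulk tissue, fewer cells of a type and less RNA per cell cannot be told apart.

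Promoter sequences are shown for Fos and Nr4a1, which fell in control tumours against cortex, and for Junb and Egr2, which were not called there (called means an adjusted p under 0.05). Each line gives the 250 bases upstream of a RefSeq transcription start on the GRCm38.p6 build, 5′ to 3′ on the gene's strand. Capitals mark the matches described after them.
Fos (chr12:85473640-85473889, plus strand): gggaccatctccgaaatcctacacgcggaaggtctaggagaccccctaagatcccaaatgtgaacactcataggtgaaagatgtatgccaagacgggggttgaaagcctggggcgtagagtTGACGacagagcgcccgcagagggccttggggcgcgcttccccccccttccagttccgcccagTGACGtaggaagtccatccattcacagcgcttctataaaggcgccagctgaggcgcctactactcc
Nr4a1 (chr15:101266596-101266845, plus strand): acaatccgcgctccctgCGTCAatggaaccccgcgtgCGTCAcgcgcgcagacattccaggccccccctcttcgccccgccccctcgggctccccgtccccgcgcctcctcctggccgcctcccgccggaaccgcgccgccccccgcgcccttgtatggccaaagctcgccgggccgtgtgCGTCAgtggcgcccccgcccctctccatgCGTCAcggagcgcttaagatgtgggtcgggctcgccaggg
Junb (chr8:84978749-84978998, minus strand): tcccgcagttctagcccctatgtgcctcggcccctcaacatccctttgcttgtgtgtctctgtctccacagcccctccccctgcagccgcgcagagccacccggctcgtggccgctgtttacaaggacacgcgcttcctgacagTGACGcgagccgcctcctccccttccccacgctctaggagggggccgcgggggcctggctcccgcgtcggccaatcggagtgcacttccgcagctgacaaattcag
Egr2 (chr10:67537619-67537868, plus strand): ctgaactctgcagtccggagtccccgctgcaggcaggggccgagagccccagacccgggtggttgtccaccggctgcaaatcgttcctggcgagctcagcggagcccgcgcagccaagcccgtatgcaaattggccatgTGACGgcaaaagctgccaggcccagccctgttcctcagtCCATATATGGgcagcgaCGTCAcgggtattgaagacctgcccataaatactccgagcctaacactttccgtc

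All 4 windows shown hold the core of the CRE, TGACG, on one strand or the other. It lies 129 to 125 and 66 to 62 bases upstream of the start in Fos and 106 to 102 bases upstream in Junb. The Nr4a1 window has 4 copies, the nearest at 40 to 36 bases and the farthest at 233 to 229 bases. In the Egr2 window shown the copies lie at 111 to 107 and 55 to 51 bases, on either side of a CArG box at 72 to 63 bases. Egr2 has other annotated starts, and their windows differ. The window at chr10:67537316-67537565 held a CArG box and no TGACG, and that at chr10:67535249-67535498 held neither. Of the 4 windows shown, the one of Egr2 alone matched the CArG box. Bases farther than 250 upstream were not searched, so a missing match says nothing about sites beyond the window.

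These letters are common in promoters. Both strands of 32851 windows of 250 bases were searched, and 17.8% held TGACG, 1.47% a CArG box, 1.55% the full CRE TGACGTCA (which contains the core), 6.75% the AP-1 site TGANTCA and 0.536% the EGR site GCGTGGGCG. No match to the last 3 was found in the 4 windows. A match describes letters and is not a binding site. Genes on chromosome 18 were left out of the promoter description by choice, and with them Egr1. Promoter windows were found for 7 of the 10 genes, and those of Atf3, Npas4 and Fosb are not printed because they overlap an annotated exon.

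**Figure D1:**
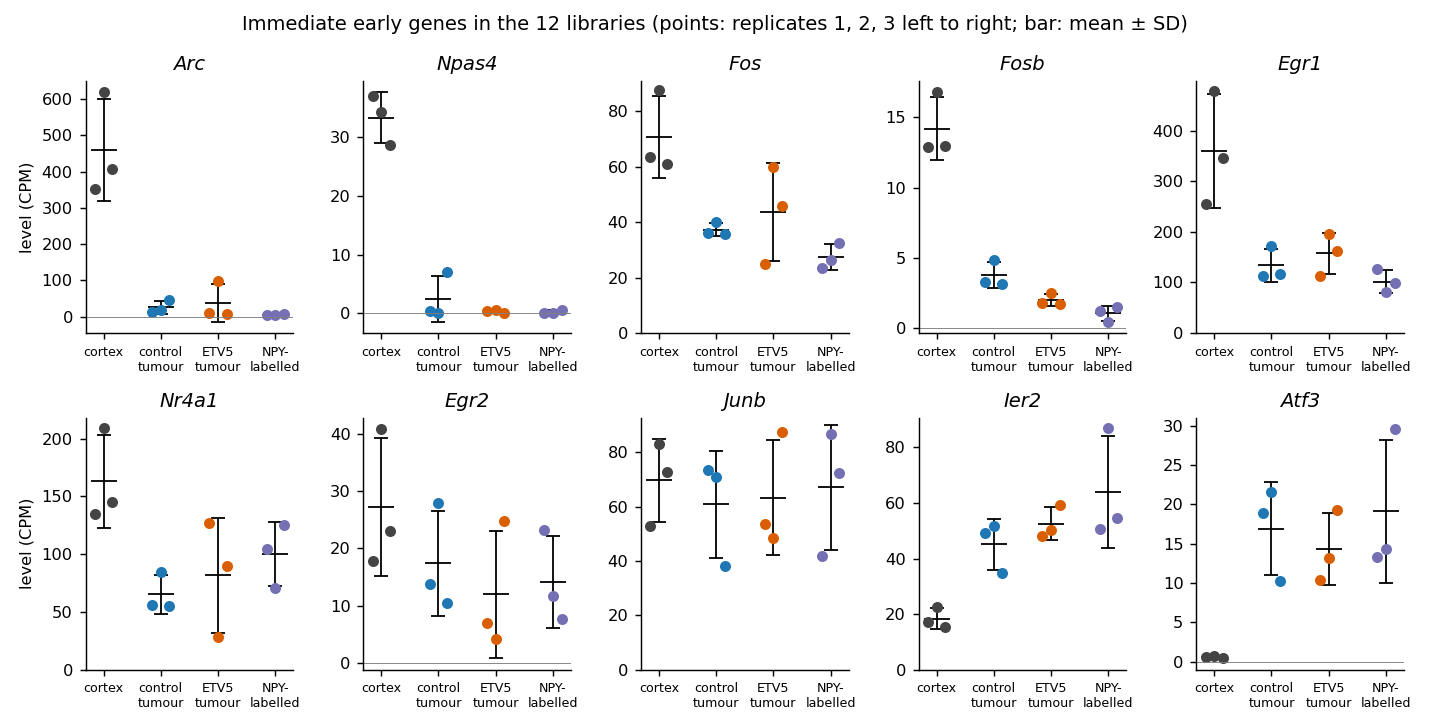
Level of each gene in CPM (vertical axis, linear, own range per panel) in the 4 groups, with 1 point per library in the order of replicates 1, 2 and 3 and bars for mean ± SD (n = 3). Arc and Npas4 stand far higher in cortex than in any tumour library, Atf3 and Ier2 lie higher in every tumour library than in cortex, and Junb overlaps across the groups.

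Tumours of all 3 kinds held far less Arc and Npas4 RNA than cortex and more Atf3 and Ier2 RNA. Against cortex, control tumours had 23.9-fold less Arc and 22.1-fold more Atf3 on the fitted log2(value + 1) scale. Fos, Fosb, Egr1 and Nr4a1 fell as well, Ier2 rose, and Junb and Egr2 did not pass. In control tumours 8 of the 10 genes were called, 2 higher and 6 lower, beside 72.0% of all 14621 genes tested, 35.7% higher and 36.2% lower. A share this near the background says little about the list, and the direction and size of each gene carry the description. The median log2 fold change of the 10 genes was -1.28, and that of all tested genes was -0.003. Adjusted p-values are from limma, Benjamini-Hochberg over all tested genes.

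Arc encodes a capsid-like protein that is translated at active synapses and governs removal of AMPA receptors. Its gene lies on chromosome 15, 74669083 to 74672570, minus strand (mm10, GENCODE M21). Its level was 352, 619 and 406 CPM in cortex, 11.2, 17.5 and 46.3 CPM in control tumours, 8.92, 97.3 and 6.73 CPM in ETV5 tumours, and 3.16, 3.90 and 6.96 CPM in NPY-labelled tumours. Every tumour library was below every cortex library. ETV5 replicate 2 and control replicate 3 were the highest among tumours.

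Arc fell in all 3 comparisons with cortex. The log2 fold change was -4.58 (SE 0.45, adjusted p = 3.12e-05) in control tumours. In ETV5 tumours it was -4.80 (SE 0.97, adjusted p = 0.00502), -6.00 without ETV5 replicate 2 and -4.12 without ETV5 replicate 3. In NPY-labelled tumours it was -6.76 (SE 0.33, adjusted p = 2.99e-06). The mean level was 5.45% of the cortex mean in control tumours, 8.20% in ETV5 tumours and 1.02% in NPY-labelled tumours. The ETV5 mean is carried by replicate 2, at 21.2%, with the others at 1.94 and 1.47%, and it orders ETV5 above control tumours where the fitted values have the opposite order.

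The neuron markers moved with Arc in part among the tumours, and their part in the result was not tested. The median of the 10 excitatory markers, as a percent of the cortex mean, was 5.42, 6.40 and 12.6% in control replicates 1 to 3. It was 0.569, 6.999 and 2.41% in ETV5 replicates 1 to 3 and 0.455, 0.479 and 0.428% in the NPY-labelled replicates. The 4 tumour libraries highest in Arc (ETV5 replicate 2 and the 3 control tumours) were also the 4 highest in these markers. Within them the order differed, since ETV5 replicate 2 led in Arc and control replicate 3 in the markers. It differed among the remaining tumour libraries too. ETV5 replicate 3 was above ETV5 replicate 1 in the markers and below it in Arc (6.73 against 8.92 CPM). NPY replicate 3 was lowest in the markers, with Arc at 6.96 CPM. The 6 inhibitory neuron markers summed to 799 to 1136 CPM in cortex, 44.4 to 135 CPM in control, 7.48 to 115 CPM in ETV5 and 4.38 to 18.4 CPM in NPY-labelled tumours.

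**Figure D2:**
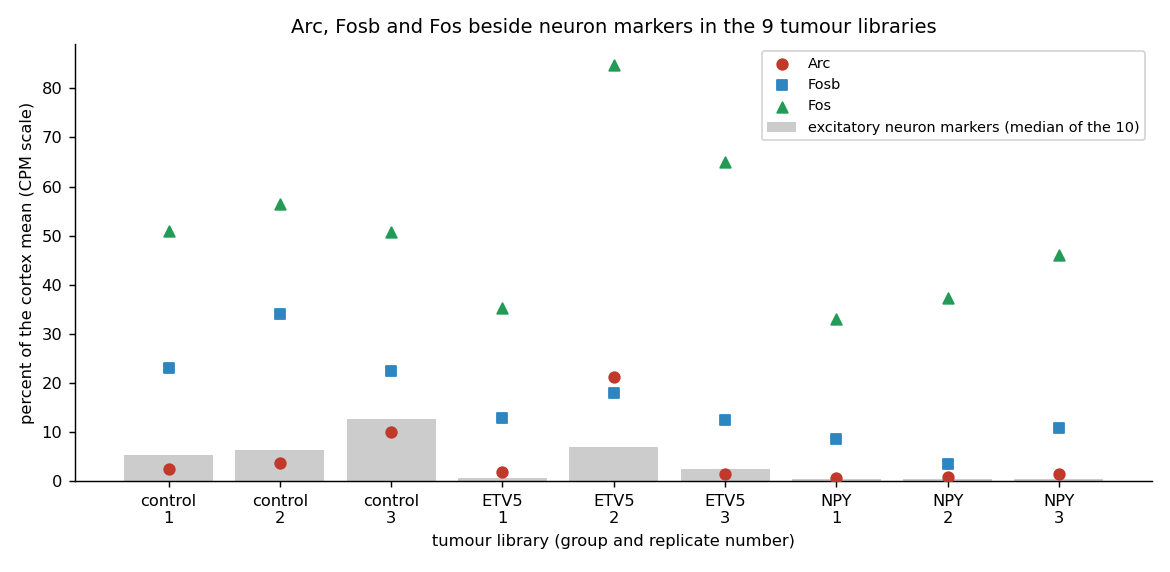
Level of Arc, Fosb and Fos in each of the 9 tumour libraries as a percent of the cortex mean (CPM scale), with grey bars for the median of the 10 excitatory neuron markers. Arc reaches 21.2% in ETV5 replicate 2, and Fos lies well above the marker bar in all 9 libraries.

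Npas4 encodes a basic helix-loop-helix PAS factor that is expressed almost only in neurons and is induced by calcium entry. Its gene lies on chromosome 19, 4984355 to 4990316, minus strand. Its level was 37.1, 34.4 and 28.7 CPM in cortex and 0.424, 0.1101 and 7.02 CPM in control tumours (4, 1 and 44 reads). ETV5 tumours had 0.394, 0.598 and 0 CPM (3, 4 and 0 reads), and NPY-labelled tumours had 0, 0 and 0.668 CPM (0, 0 and 7 reads). Control replicate 3, which is also the control tumour highest in neuron markers, held most of the Npas4 reads seen in tumours.

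Npas4 fell against cortex in control tumours (log2 fold change -5.25, SE 1.03, adjusted p = 0.00177), in ETV5 tumours (-6.67, SE 0.64, adjusted p = 0.000259) and in NPY-labelled tumours (-7.24, SE 0.70, adjusted p = 7.06e-05). At so few reads these values depend on the pseudocount of 1 and on single libraries. The control value was -6.66 without control replicate 3 and -4.26 without control replicate 2. The ETV5 value was -5.94 without ETV5 replicate 3, and the NPY value was -7.98 without NPY replicate 3. Npas4 was too low to be tested between tumour groups.

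Fos and Fosb supply the FOS side of AP-1, the dimeric transcription factor, and Junb its JUN side. Fos (chromosome 12, 85473890 to 85477273, plus strand) stood at 63.4, 87.7 and 61.0 CPM in cortex, 36.0, 40.0 and 35.9 CPM in control tumours, 24.9, 59.9 and 46.0 CPM in ETV5 tumours and 23.3, 26.4 and 32.6 CPM in NPY-labelled tumours. No tumour library reached the lowest cortex library, although ETV5 replicate 2 came close. Fos fell 2.11-fold in control tumours (log2 fold change -1.08, SE 0.17, adjusted p = 0.000576) and 2.83-fold in NPY-labelled tumours (-1.50, SE 0.21, adjusted p = 0.000428). In ETV5 tumours it missed the threshold (-0.95, SE 0.35, adjusted p = 0.0523), and it passed without ETV5 replicate 2 (-1.22, adjusted p = 0.0228). There it also passed with DESeq2 (adjusted p = 0.0388) and in the limma fit over 12 libraries (adjusted p = 0.0114). Relative to cortex, Fos kept far more of its level in tumours than Arc did, at 52.7% in control tumours, 61.7% in ETV5 tumours and 38.8% in NPY-labelled tumours.

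Fosb encodes the FOS protein whose long-lived splice form builds up with repeated neuronal activity. The gene lies on chromosome 7, 19302696 to 19310051, minus strand. It stood at 12.9, 16.8 and 12.9 CPM in cortex, 3.28, 4.84 and 3.19 CPM in control tumours, 1.84, 2.54 and 1.77 CPM in ETV5 tumours and 1.21, 0.487 and 1.53 CPM in NPY-labelled tumours. No neighbouring groups in that descending order overlapped. The share of all genes without overlap was 14.2% between ETV5 and control tumours and 12.5% between ETV5 and NPY-labelled tumours. Neither of these differences of Fosb passed in the limma fits of the 6 libraries compared (adjusted p = 0.732 and 0.813 in that order). Against cortex the log2 fold change was -2.06 in control tumours (SE 0.27, adjusted p = 0.000159), -2.90 in ETV5 tumours (SE 0.29, adjusted p = 0.000255) and -3.82 in NPY-labelled tumours (SE 0.41, adjusted p = 0.000123). The tumour levels rest on 4 to 44 reads a library.

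Junb (chromosome 8, 84974484 to 84978718, minus strand) showed no call in any comparison. It stood at 53.1, 83.2 and 72.8 CPM in cortex, 73.5, 70.8 and 38.1 CPM in control tumours, 53.7, 48.6 and 87.6 CPM in ETV5 tumours and 41.8, 86.9 and 72.5 CPM in NPY-labelled tumours. All 4 groups overlapped. The 95% interval of the log2 fold change against cortex ran from -1.07 to 0.26 in control tumours, from -1.06 to 0.37 in ETV5 tumours and from -0.98 to 0.50 in NPY-labelled tumours. Exons of Junb overlap those of Prdx2 on the opposite strand, and the sources used here do not say whether counting used the strand, so its reads cannot be fully told from those of Prdx2.

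Among the FOS and JUN genes, Fos took a smaller mean share in tumours than in cortex and Jun a larger one, given as a description. Levels were set per kilobase of exon and given as a share of the sum over Fos, Fosb, Fosl1, Fosl2, Jun, Junb and Jund. Fos made up 24.6% of that sum in cortex, 13.6% in control tumours, 15.3% in ETV5 tumours and 9.63% in NPY-labelled tumours. The ETV5 libraries ranged from 9.15 to 24.9% and overlapped those of cortex, at 20.6 to 27.4%. Jun made up 11.3% in cortex and 23.8, 18.9 and 20.5% in the same tumour groups. Junb took 24.6% in cortex and 21.9, 21.3 and 23.5% in tumours. By its own level Jun rose 1.86-fold in control tumours (log2 fold change 0.89, SE 0.17, adjusted p = 0.00159), from 42.9 ± 7.07 to 89.8 ± 14.04 CPM (SD, n = 3).

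**Figure D3:**
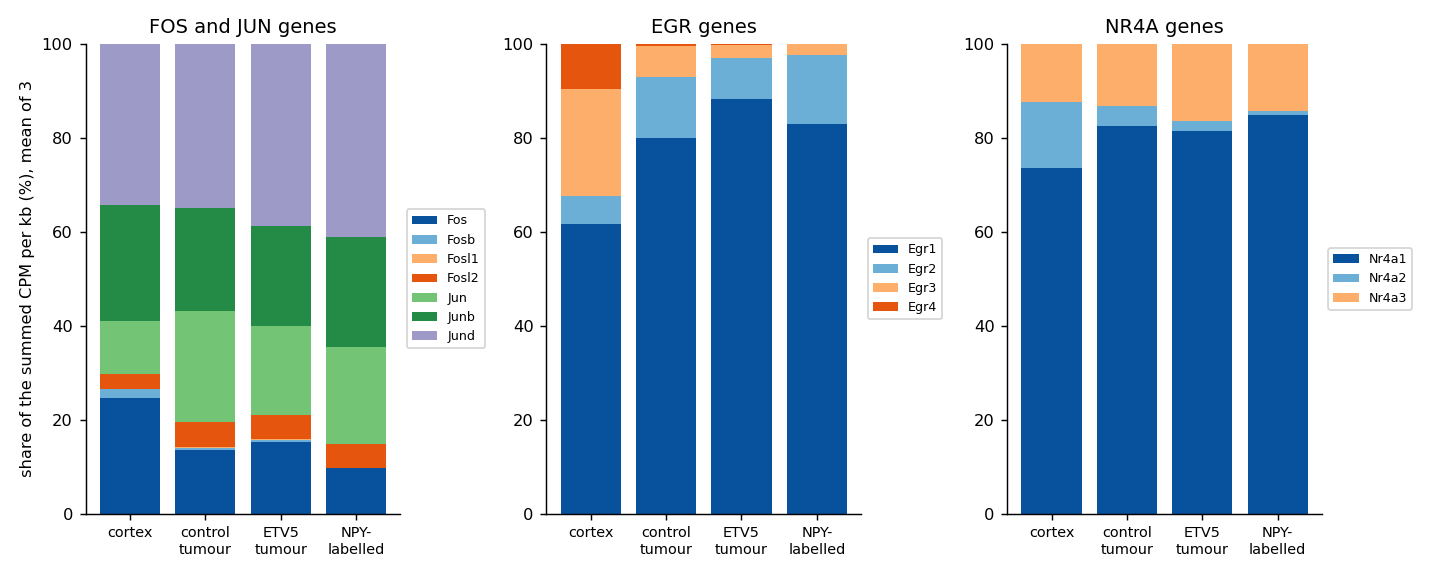
Share of each gene in the summed CPM per kilobase of its family (vertical axis in percent, mean of 3 libraries per group) for the FOS and JUN, EGR and NR4A genes. Fos goes from 24.6% in cortex to 9.63% in NPY-labelled tumours, Egr3 from 22.9% to 2.26%, and Nr4a2 from 14.01% to 0.956%.

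Egr1 and Egr2 encode zinc finger factors that bind GC-rich sites and are restrained by the corepressors Nab1 and Nab2. Egr1 (chromosome 18, 34859823 to 34864984, plus strand) stood at 255, 478 and 345 CPM in cortex, 113, 171 and 117 CPM in control tumours, 113, 196 and 162 CPM in ETV5 tumours and 126, 80.1 and 99.4 CPM in NPY-labelled tumours. Every tumour library was below every cortex library, and the tumour groups overlapped. Egr1 fell in control tumours (log2 fold change -1.58, SE 0.26, adjusted p = 0.000687), in ETV5 tumours (-1.36, SE 0.31, adjusted p = 0.00787) and in NPY-labelled tumours (-1.94, SE 0.26, adjusted p = 0.000409).

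Egr2, known for its role in myelinating Schwann cells and the hindbrain, is on chromosome 10, 67535475 to 67542188, plus strand. It was among the most scattered members. It stood at 17.7, 40.8 and 23.1 CPM in cortex, 13.8, 27.8 and 10.5 CPM in control tumours, 7.09, 4.18 and 24.7 CPM in ETV5 tumours and 23.2, 11.7 and 7.73 CPM in NPY-labelled tumours. All groups overlapped, and none of the 3 comparisons with cortex passed in the limma fits of the 6 libraries compared. The log2 fold changes were -0.85 (SE 0.42, adjusted p = 0.102) in control tumours, -1.67 (SE 0.69, adjusted p = 0.0728) in ETV5 tumours and -1.13 (SE 0.46, adjusted p = 0.0609) in NPY-labelled tumours. DESeq2 called Egr2 in NPY-labelled tumours only (adjusted p = 0.0387), and the limma fit over 12 libraries called it in ETV5 tumours only (adjusted p = 0.0425). In each comparison it passed on leaving out 1 of the 6 libraries and not on leaving out any other. Without control replicate 2 the value was -1.27 (adjusted p = 0.0174), without ETV5 replicate 3 -2.41 (adjusted p = 0.00742) and without NPY replicate 1 -1.53 (adjusted p = 0.0163). The values nearest 0 were -0.49 without cortex replicate 2 (adjusted p = 0.336), -1.12 without ETV5 replicate 2 (adjusted p = 0.174) and -0.75 without NPY replicate 3 (adjusted p = 0.178).

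The other EGR genes, Egr3 and Egr4, fell too. Egr3, which takes part in synaptic plasticity, dropped from 129 ± 31.2 CPM in cortex to 11.5 ± 7.40 CPM in control tumours (log2 fold change -3.82, SE 0.43, adjusted p = 6.55e-05). Egr4 dropped from 26.2 ± 6.63 to 0.374 ± 0.136 CPM (-5.88, SE 0.35, adjusted p = 2.20e-06). Per kilobase, Egr1 took 61.6% of the EGR sum in cortex and 79.9, 88.3 and 83.0% in control, ETV5 and NPY-labelled tumours, while Egr3 took 22.9% in cortex and 6.53, 2.70 and 2.26% in the tumours. Both corepressor genes rose. Nab2 rose 2.38-fold in control tumours (log2 fold change 1.25, SE 0.15, adjusted p = 9.95e-05) and Nab1 rose 1.91-fold (0.93, SE 0.12, adjusted p = 0.000151).

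Nr4a1 encodes an orphan nuclear receptor (Nur77) that acts without a known hormone and is controlled mainly by its transcription. The gene lies on chromosome 15, 101254269 to 101274795, plus strand. It stood at 134, 209 and 145 CPM in cortex, 55.9, 84.9 and 55.5 CPM in control tumours, 127, 28.4 and 90.0 CPM in ETV5 tumours and 105, 70.5 and 125 CPM in NPY-labelled tumours. No tumour library reached the lowest cortex library. Nr4a1 fell in control tumours (log2 fold change -1.49, SE 0.24, adjusted p = 0.000527).

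In the other tumour groups the call for Nr4a1 depended on single libraries and on the fit. In ETV5 tumours it missed the threshold (log2 fold change -1.40, SE 0.55, adjusted p = 0.062), at -0.76 without ETV5 replicate 2 (adjusted p = 0.044) and -1.82 without ETV5 replicate 1 (adjusted p = 0.0192). It passed with DESeq2 (adjusted p = 0.0437) and in the limma fit over 12 libraries (adjusted p = 0.0206). In NPY-labelled tumours it fell (-0.86, SE 0.25, adjusted p = 0.0171), and the call was lost without cortex replicate 2 (-0.66, adjusted p = 0.0566) and in the fit over 12 libraries (-0.88, adjusted p = 0.122). Its relative Nr4a2, a factor of dopamine neurons and of deep cortical layers, fell in control tumours, from 34.2 ± 11.99 CPM in cortex to 3.79 ± 1.11 CPM (-3.27, SE 0.32, adjusted p = 2.79e-05). Nr4a2 made up 14.01% of the NR4A sum per kilobase in cortex and 4.12, 1.96 and 0.956% in control, ETV5 and NPY-labelled tumours.

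Ier2, a small nuclear protein induced by growth factors, rose in each kind of tumour. The gene lies on chromosome 8, 84661331 to 84662852, minus strand. It stood at 17.1, 22.6 and 15.5 CPM in cortex, 49.0, 51.6 and 34.6 CPM in control tumours, 48.0, 50.2 and 59.2 CPM in ETV5 tumours and 50.5, 87.0 and 54.5 CPM in NPY-labelled tumours. All 9 tumour libraries were above all cortex libraries, and the tumour groups overlapped. The log2 fold change was 1.11 (SE 0.23, adjusted p = 0.00214) in control tumours, 1.34 (SE 0.21, adjusted p = 0.00167) in ETV5 tumours and 1.62 (SE 0.27, adjusted p = 0.00121) in NPY-labelled tumours.

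Atf3, a bZIP factor of the ATF/CREB family induced by stress, injury and inflammatory signals, showed the largest rise of the 10 genes. It lies on chromosome 1, 191170296 to 191218039, minus strand. It stood at 0.537, 0.671 and 0.418 CPM in cortex (4, 4 and 3 reads), 19.0, 21.6 and 10.2 CPM in control tumours, 10.4, 13.2 and 19.3 CPM in ETV5 tumours and 13.4, 14.4 and 29.6 CPM in NPY-labelled tumours. The lowest tumour library was far above the highest cortex library. The log2 fold change was 4.46 (SE 0.39, adjusted p = 1.45e-05) in control tumours, 4.23 (SE 0.38, adjusted p = 0.000194) in ETV5 tumours and 4.63 (SE 0.40, adjusted p = 3.71e-05) in NPY-labelled tumours. The pseudocount lowers these values, and the plain ratio of mean CPM was 31.2 in control tumours against a fitted 22.1-fold.

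Markers of other cell types also differed between tumours and cortex. The 10 markers of microglia and macrophages summed to 459 to 525 CPM in cortex, 3181 to 6834 CPM in control, 1703 to 2921 CPM in ETV5 and 2795 to 7922 CPM in NPY-labelled tumours. In control tumours 9 of these 10 markers rose and 1 fell. Endothelial markers rose from 68.6 to 106 CPM in cortex to 258 to 365 CPM in control tumours (5 of 6 called higher), and pericyte and fibroblast markers from 109 to 148 CPM to 2293 to 3208 CPM (6 of 6 higher). In ETV5 tumours 4 of 6 endothelial and 4 of 6 pericyte and fibroblast markers were called higher. In NPY-labelled tumours 2 of 6 endothelial markers were higher (115 to 354 CPM), and of the 6 pericyte and fibroblast markers 4 were higher and 1 lower. Over all genes tested, 35.7, 31.8 and 35.6% were called higher in control, ETV5 and NPY-labelled tumours. The 2 of 6 endothelial markers are near that share. The part of these cell types in the rise of Atf3 and Ier2 was not tested. Astrocyte markers were 54.0 to 65.0% of the cortex mean in control, 23.5 to 64.2% in ETV5 and 12.8 to 38.4% in NPY-labelled tumours, by their median. Oligodendrocyte markers were at 10.4 to 25.4, 2.01 to 11.01 and 1.57 to 8.04% in the same order. Of the red blood cell markers, 4 globin genes had 0 reads in all groups, cortex included, so they give no measure of blood. Alas2, the remaining marker, stood at 6.82 to 19.0 CPM in cortex and 0.847 to 1.91 CPM in control tumours. It stood at 3.59 to 9.32 CPM in ETV5 and 4.74 to 20.0 CPM in NPY-labelled tumours. It was called lower in control tumours than in cortex and higher in NPY-labelled than in control tumours.

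The ETV5 and NPY-labelled tumours shared the cortex libraries as reference with the control tumours, so the 3 comparisons are not independent. In ETV5 tumours 6 of 10 genes were called, 2 higher and 4 lower, beside 63.8% of 14493 tested genes (31.8% higher, 32.0% lower). In NPY-labelled tumours 8 of 10 were called, 2 higher and 6 lower, beside 70.9% of 14613 (35.6% higher, 35.4% lower). The median of the 10 log2 fold changes was -1.38 and -1.32, and over all tested genes it was 0.012 and 0.007. Within the libraries coded DS, that is without ETV5 replicate 3, 7 of the 10 genes were called between ETV5 tumours and cortex, with Egr2 the addition. On the CPM scale the median of all genes was 0.161, 0.183 and 0.146 in control, ETV5 and NPY-labelled tumours against cortex, and no member changed sign.

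**Figure D4:**
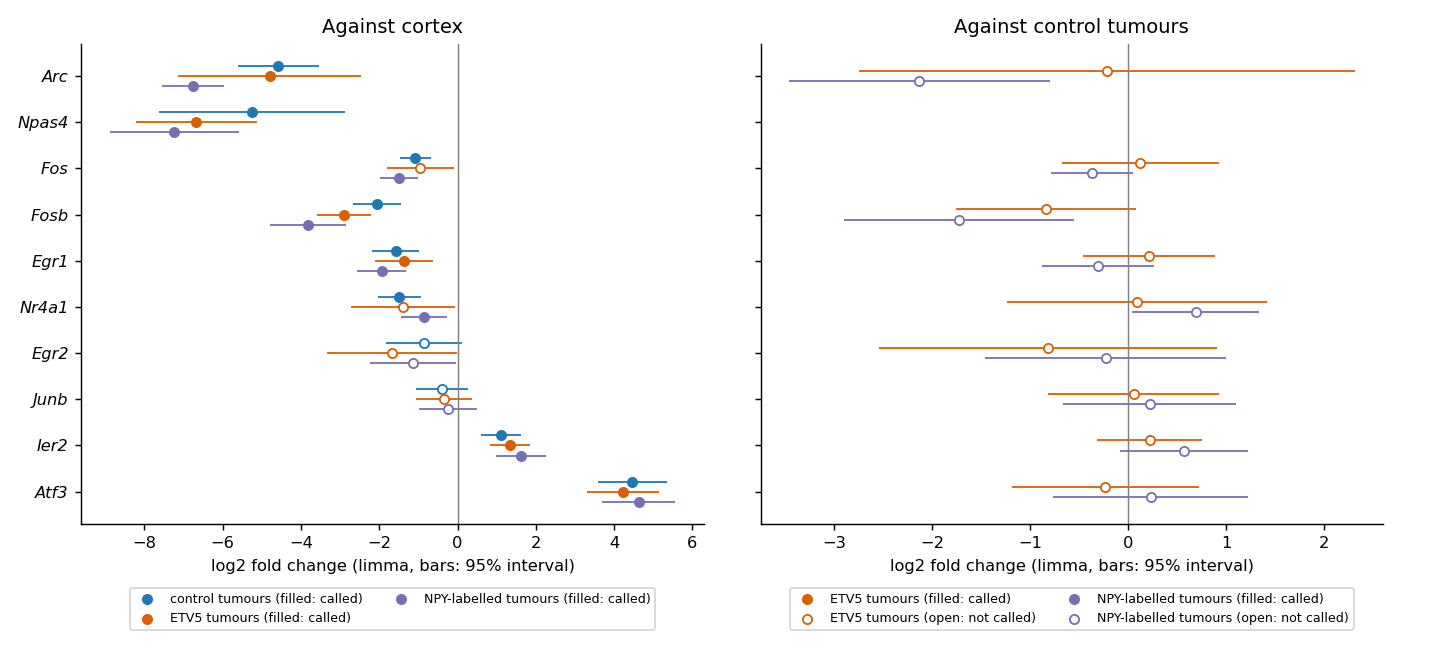
Log2 fold change of each gene against cortex (left) and against control tumours (right), from limma with 95% intervals, as filled points where called and open points where not. Arc and Npas4 lie at the far left of the first panel and Atf3 at the far right, and every point of the second panel is open.

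Per kilobase of exon, Arc, Ier2 and Atf3 changed place most in the order of the genes between cortex and control tumours, while Fos was the fifth in all 4 groups. In cortex, Arc led at 150.1 CPM per kilobase, followed by Egr1 at 80.1 and Nr4a1 at 46.5. Junb (30.3) and Fos (30.1) came next, did not differ beyond their spread, and were followed by Ier2, Npas4, Egr2, Fosb and Atf3, the last at 0.252. In control tumours Egr1 (29.8 CPM per kilobase), Ier2 (29.6) and Junb (26.4) were close together at the top, and Arc was sixth at 8.18. ETV5 tumours had the same order down to Egr2, with Egr1 first at 35.1 CPM per kilobase and Arc sixth at 12.3. In NPY-labelled tumours Ier2 led at 42.1 CPM per kilobase, and Arc stood eighth at 1.53. The sum of the 10 genes was 943 to 1592 CPM in cortex and 358 to 501 CPM over the 9 tumour libraries.

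Tumours with human ETV5 or human NPY were each set against control tumours. Between NPY-labelled and control tumours the added gene cannot be told apart from the library code, which starts with EC in the former and DS in the latter. Among ETV5 tumours, replicate 3 is coded EC as well. In the limma fits of the 6 libraries compared, no member was called. Between ETV5 and control tumours 0 of 9 tested members were called by limma, 0 by edgeR and 0 by DESeq2, beside 0.0% of 14382 genes by limma. At an unadjusted p under 0.05 there were 944 genes and 0 members, and over all genes edgeR called 0 and DESeq2 75. Fosb alone had libraries that did not overlap, lower in ETV5 tumours, beside 14.2% of all genes that did not overlap. Its log2 fold change was -0.84 (95% interval -1.76 to 0.08, adjusted p = 0.732), and -0.78 within the libraries coded DS.

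For Arc the interval between ETV5 and control tumours was wide, from -2.74 to 2.31 around -0.22. That value went to -1.42 without ETV5 replicate 2 and to 0.46 without ETV5 replicate 3. The intervals for Egr1 (-0.46 to 0.89), Ier2 (-0.31 to 0.76) and Fos (-0.68 to 0.93) were narrower. A 4-fold difference of Arc in either direction lies within its interval and was not detectable with these libraries.

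Between NPY-labelled and control tumours 0 of 9 tested members were called by limma, 0 by edgeR and 2 by DESeq2, beside 5.04% of 14425 genes by limma. At an unadjusted p under 0.05 there were 3 members and 3389 genes. The 727 genes that limma called dropped to 1 without control replicate 2, 78 without control replicate 3, 138 without control replicate 1 and 125 without NPY replicate 1. Fos, Fosb and Arc were lower with no overlap between libraries, beside 29.6% of all genes that did not overlap. The log2 fold change of Arc was -2.13 (SE 0.56, 95% interval -3.46 to -0.80, adjusted p = 0.0807). DESeq2 called it (adjusted p = 0.00175), and with limma it missed the threshold without each library in turn (adjusted p = 0.0886 to 0.204). The log2 fold change of Fosb was -1.72 (SE 0.49, adjusted p = 0.0974) and was called by DESeq2 (adjusted p = 0.0409) and in a limma fit over all 12 libraries (adjusted p = 0.0265).

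The other members differed less between those groups. Nr4a1 was 0.69 on the log2 scale above control tumours (95% interval 0.04 to 1.34, adjusted p = 0.192), and Ier2 was 0.57 above (interval -0.09 to 1.22, adjusted p = 0.269). Fos was at -0.37 (interval -0.79 to 0.05, adjusted p = 0.263) and Egr1 at -0.31 (interval -0.88 to 0.27). Of the 10 excitatory neuron markers, 8 fell between these groups, beside 5.04% of all genes called. Their part in the lower Arc and Fosb was not tested.

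Between ETV5 and NPY-labelled tumours 0 of 9 members were called by limma, 0 by edgeR and 0 by DESeq2, beside 0.0% of 14023 genes by limma. At an unadjusted p under 0.05 there were 831 genes and 0 members, and over all genes edgeR called 0 and DESeq2 56. Fosb was higher in ETV5 tumours without overlap (log2 fold change 0.91, adjusted p = 0.813), beside 12.5% of genes without overlap. Arc differed by 1.95 (95% interval -0.45 to 4.35), a value that was 0.76 without ETV5 replicate 2. Most ETV5 libraries differ from the NPY-labelled ones in library code too, so these differences cannot be fully told apart from it.

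Related genes that are no members were counted in lists, each to be read against the share over all genes. Against cortex that share was 72.0% called in control tumours (35.7% higher, 36.2% lower), 63.8% in ETV5 tumours (31.8% higher, 32.0% lower) and 70.9% in NPY-labelled tumours (35.6% higher, 35.4% lower).

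Of 29 further immediate early genes tested in control tumours against cortex, 12 rose, 9 fell and 8 did not pass, with a median log2 fold change of 0.29. The 21 of 29 called are at the background of 72.0%, and the median has the opposite sign to that of the 10 members. Maff, a small MAF factor, rose from 1.07 ± 0.683 to 37.8 ± 11.9 CPM (log2 fold change 4.92, SE 0.45, adjusted p = 2.02e-05). Zfp36, which destabilises cytokine mRNAs, rose 9.21-fold (adjusted p = 9.79e-06), and Ier3, a survival factor, rose 6.05-fold (adjusted p = 2.10e-05). Arl4d, a small GTPase, fell 10.9-fold (adjusted p = 5.14e-06) beside Egr3 and Egr4. In ETV5 tumours 9 rose and 10 fell, with a median of 0.34. In NPY-labelled tumours 11 rose and 9 fell, and the median of -0.18 was negative like that of the members. None was called between tumour groups.

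Of 16 late genes that neurons switch on after the immediate early ones, 9 fell in control tumours, 1 rose and 6 did not pass, with a median log2 fold change of -1.12. The 10 of 16 called stand beside 72.0% of all genes, and the 9 lower beside 36.2%. Lingo1, an inhibitor of axon growth, dropped from 323 ± 44.9 to 39.0 ± 14.8 CPM (log2 fold change -3.28, SE 0.26, adjusted p = 8.58e-06), and Scg2, a granin of secretory vesicles, from 208 ± 38.3 to 32.0 ± 17.8 CPM (-3.02, SE 0.37, adjusted p = 0.000116). Pcsk1, a prohormone convertase, fell as well (-3.08, SE 0.66, adjusted p = 0.00291). Baz1a, a chromatin remodelling subunit that dividing cells use, rose 6.98-fold (adjusted p = 1.45e-05). The counts were 9 lower and 2 higher in ETV5 and in NPY-labelled tumours.

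Of these late genes, 3 passed between NPY-labelled and control tumours in the limma fit of those 6 libraries, beside 5.04% of all genes. Nptx2, which clusters AMPA receptors, stood at -3.39 on the log2 scale (SE 0.67, adjusted p = 0.0414), with 1.48 ± 0.486 against 21.2 ± 13.3 CPM. Lingo1 was at -3.34 (SE 0.35, adjusted p = 0.0122) and Vgf, a neuropeptide precursor, at -1.96 (SE 0.39, adjusted p = 0.0396). These calls sit in the comparison in which 8 of 10 excitatory neuron markers fell and in which leaving out 1 library took all calls to 1 to 571 genes.

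Upstream of the members, 12 of 20 kinases and factors that induce immediate early genes fell in control tumours, 3 rose, and the median log2 fold change was -0.88. The 15 of 20 called are near the background of 72.0%, and the 12 lower stand beside 36.2% of all genes. Camk4, the nuclear calcium kinase that acts on CREB, dropped from 438 ± 62.1 to 12.6 ± 6.62 CPM (log2 fold change -5.41, SE 0.33, adjusted p = 2.68e-06), and it was the 1 gene of the list that fell between NPY-labelled and control tumours (-2.98, SE 0.45, adjusted p = 0.0221). Mef2c fell 7.57-fold and Mkl2, a coactivator of SRF, 5.05-fold. Rps6ka1, a kinase downstream of ERK, rose from 14.5 ± 1.57 to 351 ± 27.6 CPM (4.41, SE 0.14, adjusted p = 3.22e-07), and Elk3, an ETS partner of SRF, rose 4.50-fold (adjusted p = 5.67e-06). The counts were 10 lower and 3 higher in ETV5 tumours and 10 lower and 2 higher in NPY-labelled tumours.

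Among possible AP-1 partners and related bZIP factors, 6 of 11 tested genes rose in control tumours and 2 fell, with a median log2 fold change of 0.48. The 8 of 11 called are near the background of 72.0%, and the 6 higher stand beside 35.7% of all genes. Batf, an AP-1 factor of leukocytes, stood at 0.0928 ± 0.161 CPM in cortex and 11.7 ± 3.18 CPM in control tumours. Mafk rose 8.60-fold (adjusted p = 9.22e-07), Jdp2 fell 2.82-fold (adjusted p = 8.18e-05) and Atf2 fell 2.54-fold (adjusted p = 1.93e-05). In ETV5 tumours 5 rose and 2 fell of 10, and in NPY-labelled tumours 6 rose and 2 fell of 10.

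All 9 tested partners of Arc and corepressors of EGR proteins were called in control tumours, 3 higher and 6 lower, beside 72.0% of all genes called, with a median log2 fold change of -2.86. Camk2a, the kinase that Arc meets at synapses, dropped from 3728 ± 419 to 294 ± 89.3 CPM (-3.88, SE 0.22, adjusted p = 1.68e-06), and it is also a neuron marker of the list above. Dlg4, the scaffold PSD-95, dropped from 940 ± 51.1 to 82.2 ± 20.6 CPM (-3.71, SE 0.16, adjusted p = 8.38e-07). Both also fell between NPY-labelled and control tumours (-3.56, adjusted p = 0.00884, and -2.13, adjusted p = 0.0122). The counts of 3 higher and 6 lower were the same in ETV5 and NPY-labelled tumours.

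Of 12 stress response genes set beside Atf3, 5 rose in control tumours, 1 fell and 6 did not pass, with a median log2 fold change of 0.49. Beside this, 72.0% of all genes were called and 35.7% were higher. Trib3, a pseudokinase target of ATF4, rose from 0.352 ± 0.193 to 20.8 ± 2.82 CPM (5.39, SE 0.41, adjusted p = 7.28e-06). Hmox1, haem oxygenase 1, rose 20.3-fold (adjusted p = 1.18e-06) and Cebpb 16.7-fold (adjusted p = 4.43e-06). Asns, asparagine synthetase and another ATF4 target, fell 2.62-fold (adjusted p = 0.000121). In ETV5 tumours 4 of 11 rose and 0 fell, and in NPY-labelled tumours 6 of 12 rose and 0 fell.

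The genes whose level followed each member most closely over the 12 libraries were found by Pearson r of log2(CPM + 1), among genes with a mean of at least 5 CPM. The 12 points share their group, so r mostly follows the cortex and tumour difference. Arc was most like Chrm3 (r = 0.994) and Tcea2 (0.989), Npas4 like Mpp3 (0.985) and Fosb like Sgsm2 and Sobp (both 0.986). Atf3 was most like Irf8 (0.988) and Tspo (0.986), 2 genes known from microglia and macrophages, and Ier2 like E430025E21Rik (0.990) and Lrrc59 (0.987). Values were lower for Egr1 (H1fx, 0.947), Nr4a1 (Tbc1d9, 0.886), Egr2 (Hes5, 0.859) and Junb (Grasp, 0.851).

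Within the tumour groups the 10 genes did not move as 1 block. After each group's mean was removed, 24 of the 45 pairs of members had a positive r over the 9 tumour libraries, and 7 had an r over 0.5. Junb and Ier2 (r = 0.84), Fosb and Egr1 (0.74) and Junb and Atf3 (0.69) were the closest pairs. Arc and Nr4a1 had an r of -0.74, and ETV5 replicate 2 had the highest Arc and the lowest Nr4a1 of the 9 tumour libraries. The groups did not share this course, since NPY replicate 3 was the highest of its group for both genes. These values describe 9 libraries and carry no test.

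Single libraries stood high or low for many members at a time. Cortex replicate 2 was the highest of its group for 9 of the 10 genes, all but Npas4. Control replicate 2 was the highest control for 7 genes, and control replicate 3 was the lowest for 7 and the highest for Arc and Npas4. ETV5 replicate 2 was the highest of its group for Fos, Fosb, Egr1, Arc and Npas4 and the lowest for Junb, Egr2 and Nr4a1.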

How the data were processed

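Total RNA was made into stranded mRNA libraries and sequenced as paired ends, per the labels' protocols. The submitters' processing notes name STAR 2.5.0a, DESeq2 1.30.1 and build mm10. The sources used here do not name the counting tool, its strand setting or its annotation. The authors deposited a normalized signal per gene in 2 tables (cortex, control and ETV5 tumours, and control and NPY-labelled tumours). All deposited values were whole multiples of a step set by the library (tolerance 0.01 read), so division gave back whole reads for 100% of values. Control libraries had the same reads in both tables.

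Group and replicate came from sample titles. Differences were fitted with limma 3.58.1 (trend and robust moderation, R 4.3.3) on log2(value + 1) over the 6 libraries of the groups compared, on the deposited values. For NPY-labelled tumours against cortex or ETV5 tumours, recovered reads were scaled by median of ratios. Genes passed the edgeR 4.0.16 filter (10 reads, 15 in total). Tests were 2-sided. The fit was also run on simulated counts in which a small share of genes changed. The comparisons with cortex are unlike that, so the simulation does not check the scaling there. Alternatives were pseudocounts of 0.5 and 4, no filter, a mean of at least 5 CPM, edgeR quasi-likelihood, DESeq2 1.42.0, a fit over 12 libraries, a replicate block and leaving out each library. In all, 27 symbols that had turned into dates were not named.

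The members and gene lists were chosen with earlier results of these data known. Named beside the members were, per list, up to 3 called genes in each direction, and related genes chosen by family after their values were seen (Jun, Nr4a2).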

Additional observations from a re-analysis of the deposited data

How the results depend on the processing

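Of 795 values of single genes under another setting, 751 kept direction and side of the threshold, 18 came to pass, 2 ceased to pass and 24 changed sign. No called value changed sign. Counts of members called against cortex stayed within 1.5 times, at 8 to 9 in control, 6 to 9 in ETV5 and 7 to 9 in NPY-labelled tumours. Between ETV5 and control tumours DESeq2 called 75 genes (limma 0). Between NPY-labelled and control tumours members called were 2 with DESeq2, 1 in the fit over 12 libraries and 1 with the replicate block (limma 0, block Arc at adjusted p = 0.0478), and genes called were 1833, 1164 and 264 in that order (limma 727), and 1 (without control replicate 2) to 571 (without NPY replicate 2) on leaving out 1 library. Between ETV5 and NPY-labelled tumours genes called were 1 with no filter, 56 with DESeq2, 5 in the fit over 12 libraries and 0 to 1 on leaving out 1 library (limma 0). The cause was not tested.

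The sign changes were in values that did not pass. For ETV5 against control tumours, Arc was 0.59 with edgeR and 0.58 with DESeq2. On leaving out 1 library, Arc ranged from -1.42 to 0.46, Fos from -0.14 to 0.50, Junb from -0.27 to 0.23, Nr4a1 from -0.33 to 0.73 and Atf3 from -0.58 to 0.00128. For NPY-labelled against control tumours, Junb ranged from -0.10 to 0.53, Egr2 from -0.65 to 0.19 and Atf3 from -0.13 to 0.46. For ETV5 against NPY-labelled tumours, Junb ranged from -0.44 to 0.10, Egr2 from -1.27 to 0.0155 and Nr4a1 from -1.02 to 0.10. Junb ranged from -0.46 to 0.10 for NPY-labelled tumours against cortex.

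Same-numbered libraries did not behave as pairs. Their deviations correlated at -0.387 to 0.373, and those of differently numbered ones at -0.53 to 0.482, with the best match of the same number in 13 of 36 choices. The replicate block also called Egr2 in control tumours against cortex (adjusted p = 0.00767) and Fos in ETV5 tumours against cortex (adjusted p = 0.0242). Fosb, Npas4 and cortex Atf3 rest on the fewest reads.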
